A study of Homo sapiens with 21 samples.

Results

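Cytokines and chemokines are secreted proteins through which tumor cells act on immune cells, endothelium, stroma and each other. The genes described here are 41 such ligands, chosen by symbol from named families and matched to the count table of BT-549 cells by gene identifier. Of these, 40 were in the table of 42339 genes, and CXCL14 was not analysed here. BT-549 is an established human triple-negative breast cancer (TNBC) cell line with wild-type BRCA1.

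RNA from 21 cultures was sequenced, with 3 libraries in each of 7 groups. The 2D cells were attached monolayers of the parental line in RPMI1640 with 10% serum and insulin. The 3D cells were parental mammospheres at serial passage 6, which is written S6, grown unattached in serum-free MammoCult medium, labelled as controls and described by the study as given vehicle where they are set against GO-203. A further S6 group received 0.75 µM GO-203, a peptide inhibitor aimed at the CQC motif in the cytoplasmic tail of MUC1-C. The tet-MUC1shRNA mammospheres were at S6 and the tet-MYCshRNA mammospheres at S8, and each line received 0.1% DMSO as vehicle or 500 ng/ml doxycycline (DOX), which switches on the shRNA. DOX was given for 10 days to the tet-MUC1shRNA cells, and the duration of GO-203 and of DOX in the tet-MYCshRNA cells is not given in the sources used here. Each tet line carried a single puromycin-selected shRNA vector. No DOX-treated line without a targeting shRNA was analysed here, so the effects of DOX and of silencing cannot be told apart. In 3D against 2D, attachment, serum, medium and passage cannot be told apart, and the tet lines differ from each other in both vector and passage.

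Chemokines are small attractants named for the spacing of their first cysteines. The CXC chemokines that carry the ELR (Glu-Leu-Arg) motif bind CXCR1 and CXCR2 and draw neutrophils, whereas most other CXC and CC chemokines act on lymphocytes, monocytes or dendritic cells. Interleukins, colony-stimulating factors and TNF superfamily ligands control the growth, survival and activation of blood cells, and many of them are induced through NF-κB, AP-1 and STAT3. In breast cancer cells, IL-6, LIF and CXCL8 are well known as autocrine signals of stem-like and invasive states.

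The ELR chemokine genes lie together on chromosome 4 and each hold a common promoter motif, so their promoters are shown before their values. Promoters were taken from RefSeq (GRCh38.p14) as the 250 bases before and 50 bases after the start site. The stretch from 110 to 51 bases before the start site is printed 5′ to 3′ on the gene's strand, with capitals marking the match to the NF-κB-type motif GGANNTTCC on either strand. The windows are chr4:73869283-73869342 (forward strand) for CXCL1, chr4:74099246-74099305 (reverse strand) for CXCL2, chr4:74038740-74038799 (reverse strand) for CXCL3, chr4:73998728-73998787 (reverse strand) for CXCL5, chr4:73836568-73836627 (forward strand) for CXCL6 and chr4:73740459-73740518 (forward strand) for CXCL8. IL6 is added for comparison, from chr7:22727090-22727149 (forward strand).
CXCL1: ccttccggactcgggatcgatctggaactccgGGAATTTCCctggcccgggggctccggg
CXCL2: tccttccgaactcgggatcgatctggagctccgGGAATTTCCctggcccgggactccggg
CXCL3: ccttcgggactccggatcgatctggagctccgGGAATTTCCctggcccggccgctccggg
CXCL5: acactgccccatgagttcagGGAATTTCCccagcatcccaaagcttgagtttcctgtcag
CXCL6: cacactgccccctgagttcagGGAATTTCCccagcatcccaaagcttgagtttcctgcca
CXCL8: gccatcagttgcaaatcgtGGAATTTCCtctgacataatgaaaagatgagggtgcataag
IL6: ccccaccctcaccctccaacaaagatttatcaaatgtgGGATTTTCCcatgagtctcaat

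All 6 ELR chemokine promoters held GGAATTTCC, which starts 77 to 91 bases before the start site. IL6 held GGATTTTCC at 72 bases. The motif occurred in 4.56% of 34796 different promoter sequences of this length. The windows of CXCL1, CXCL2 and CXCL3 resemble each other along their whole length, as do those of CXCL5 and CXCL6, so the 6 promoters are not independent examples. Reads from genes of similar transcript sequence may be assigned unevenly. Transcript sequences were not compared here, and the handling of multi-mapping reads is not given in the sources used here. CXCL8 is the member that changed past the fold threshold in 3D against 2D and in both silencing comparisons, and its whole promoter, chr4:73740319-73740618 on the forward strand, is printed with capitals for the AP-1-type motif TGANTCA, the NF-κB-type motif and TATAAA.
CXCL8: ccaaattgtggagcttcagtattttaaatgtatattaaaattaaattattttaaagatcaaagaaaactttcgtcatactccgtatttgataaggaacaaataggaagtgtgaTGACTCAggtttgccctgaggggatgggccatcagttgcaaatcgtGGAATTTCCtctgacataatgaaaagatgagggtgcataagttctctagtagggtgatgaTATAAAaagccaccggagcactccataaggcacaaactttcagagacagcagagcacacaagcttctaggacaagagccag

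The capitals begin 137, 91 and 31 bases before the start site, in that order. TGANTCA occurred in 7.73% of the different promoter sequences and TATAAA in 11.6%. The 29 members in the count table with a promoter had 1 to 3 entries each, 39 in all. Of these entries 12 held the NF-κB-type motif, 8 the AP-1-type motif and 11 TATAAA. A match in at least 1 entry was found for 12, 7 and 10 members. Outside the ELR family the NF-κB-type motif was found in CXCL10, CXCL11, IL6 and CSF2, in 1 of 2 entries of IL32 and in 1 of 3 of TSLP. These are matches of letters, and binding was not measured.

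Library totals ran from 38026597 to 99751717 counts, and a member is given in CPM, its counts relative to library size after scaling over the 21 libraries. Among counts from 1 to 10 in a library, 68.5% to 72.8% were even, so a count of a low gene does not stand for 1 independent molecule. The intervals given here cover counting error alone, take every count as independent, and are too narrow to that extent. Per the study's methods the cells were grown as triplicate cultures, so p-values measure the spread between cultures of 1 line. VIM, CD44 and ZEB1 were high in every group, and mean ERBB2 was at 20 to 35.8 CPM with ESR1, PGR and CDH1 at most at 1.51 CPM in any library. The 9 leukocyte markers measured summed to 0.456 to 9.32 CPM per library. In most groups no leukocyte marker passed 1 CPM on average, while PTPRC was at 1.25 CPM in 2D cells and FCER1G at 7.89 CPM in DOX-treated tet-MUC1shRNA cells. The sum of 5 endothelial markers was 1.01 to 1.74 CPM in 2D cells and 5.04 to 10.9 CPM in the mammosphere groups, mostly PECAM1. The part of these genes in the results was not tested. Among replicates, DOX-treated tet-MYCshRNA replicate 1 stood farthest from the others of its group, with a chi-square over degrees of freedom of 45.6 and 31.5 against them, where pairs of the other groups had at most 18.5.

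MUC1 was counted at 101, 83.1 and 86.6 CPM in vehicle-treated and at 19.7, 21.2 and 23.3 CPM in DOX-treated tet-MUC1shRNA libraries, a log2 fold change of -2.06 (SE 0.07, adjusted p = 2.97e-15). MYC was at 439, 418 and 386 CPM in vehicle-treated and at 244, 279 and 297 CPM in DOX-treated tet-MYCshRNA libraries, a log2 fold change of -0.62 (SE 0.08, adjusted p = 9.05e-05). MYC mRNA thus remained at 273 CPM on silencing. MYC mRNA rose by a log2 of 0.25 on MUC1 silencing, and MUC1 mRNA rose by 1.25 on MYC silencing and by 0.33 with GO-203. Changes were tested with edgeR's quasi-likelihood test on the 6 libraries of each comparison, with Benjamini-Hochberg adjustment over all genes tested. A gene passed at an adjusted p below 0.1, and it is called changed past the fold threshold where the absolute log2 fold change was also above 1.5.

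In 3D cells, per kilobase of exon, CXCL1 had the highest level, at 87.5 ± 3.11 CPM per kb (SD, n = 3), followed by CXCL5 at 52.1 ± 3.58 and CXCL8 at 51.1 ± 4.44, which did not differ beyond their spread. CSF1 followed at 13.1 ± 0.894, CXCL2 at 7.99 ± 0.308 and CSF3 at 7.61 ± 0.217 CPM per kb. In 2D cells the order of the levels was CXCL5 at 86 ± 11.8, CXCL1 at 64.5 ± 6.03 and VEGFC at 14.3 ± 0.168 CPM per kb, with CXCL8 at 2.74 ± 0.486. In vehicle-treated tet-MYCshRNA cells CXCL5 led at 172 ± 11.1 CPM per kb, and in DOX-treated cells of that line CSF1 led at 48.2 ± 5.89. The members together took 0.0371% to 0.0854% of the counts of a library.

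Of the 40 members, 19 had enough counts for the test in every comparison and 12 in none. The latter were CXCL10, CXCL11, CXCL12, CCL7, CCL26, CCL28, IL1RN, IL33, IL34, TNF, TNFSF10 and CSF2, whose highest counts in any library ran from 2 for TNF and CCL28 to 8 for CXCL10, CCL7 and CCL26. These genes include the interferon-induced T cell attractants CXCL10 and CXCL11 and the inflammatory cytokine TNF, for which changes were not detectable at this depth. IL11, CX3CL1 and IL24 were tested in 1 comparison, IL18, IL1A and CXCL13 in 2, and CCL2, CXCL6 and TNFSF15 in 3.

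**Figure D1:**
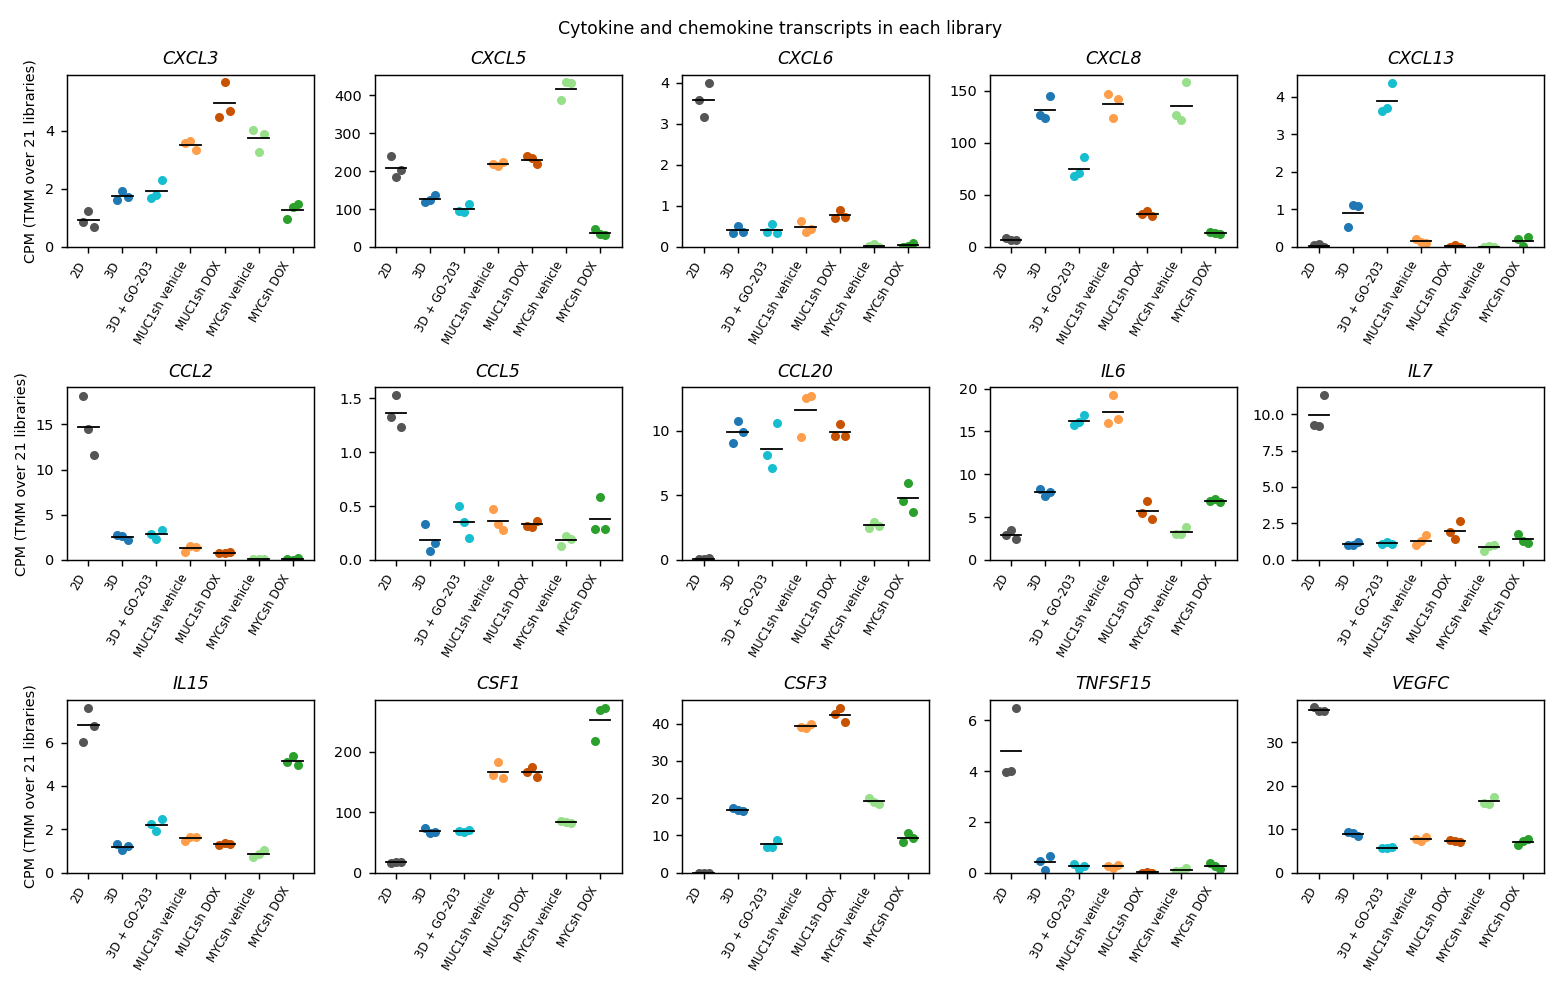
Each panel plots 1 member in CPM (linear axis from 0) for the 21 libraries by group, with a point for each library and a line for the mean of 3. CXCL8, CCL20, CSF1 and CSF3 sit near 0 or low in 2D cells and higher in the mammosphere groups, whereas VEGFC, IL7, TNFSF15, CCL2 and CXCL6 are highest in 2D cells.

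The comparison of 3D with 2D cells asks which ligand genes differ between mammospheres and monolayer cells. CSF3, CCL20, CXCL8, CXCL13 and CSF1 rose past the fold threshold, and CXCL6, TNFSF15, IL7, CCL5, CCL2, IL15 and VEGFC fell past it. Of 25 members tested, 10 rose, 11 fell and 4 did not pass. Over all 19190 genes tested, 63.7% passed, and 32% rose and 31.7% fell. The 5 rises and 7 falls past the fold threshold stand against 16.2% of all genes past it, 6.9% higher and 9.29% lower. The median log2 fold change was -0.5 over the members and -0.00737 over all genes.

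CXCL8 (ENSG00000169429) encodes interleukin-8, the main human neutrophil attractant. It was at 8.54, 6.31 and 6.41 CPM in 2D and at 127, 124 and 145 CPM in 3D libraries, an 18.7-fold rise (log2 4.23, SE 0.1, adjusted p = 4.59e-15). All 3D libraries were above all 2D libraries. Among the other ELR chemokines, CXCL1, CXCL2 and CXCL3 rose by less, with log2 fold changes of 0.44, 1.05 and 0.9. CXCL3 was at 0.865, 1.23 and 0.701 CPM in 2D and at 1.62, 1.91 and 1.72 CPM in 3D libraries. CXCL5 and CXCL6 went the other way.

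CXCL5, the most abundant ELR transcript of 2D cells, was at 241, 185 and 202 CPM there and at 119, 125 and 136 CPM in 3D libraries (log2 fold change -0.73, SE 0.08, adjusted p = 1.27e-06). This fall did not extend to the tet lines. Vehicle-treated tet-MUC1shRNA libraries had 220, 214 and 225 CPM and vehicle-treated tet-MYCshRNA libraries 387, 435 and 432 CPM. CXCL6 was at 3.59, 3.16 and 4 CPM in 2D and at 0.332, 0.507 and 0.372 CPM in 3D libraries (log2 fold change -3.15, SE 0.24, adjusted p = 9.36e-09).

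**Figure D2:**
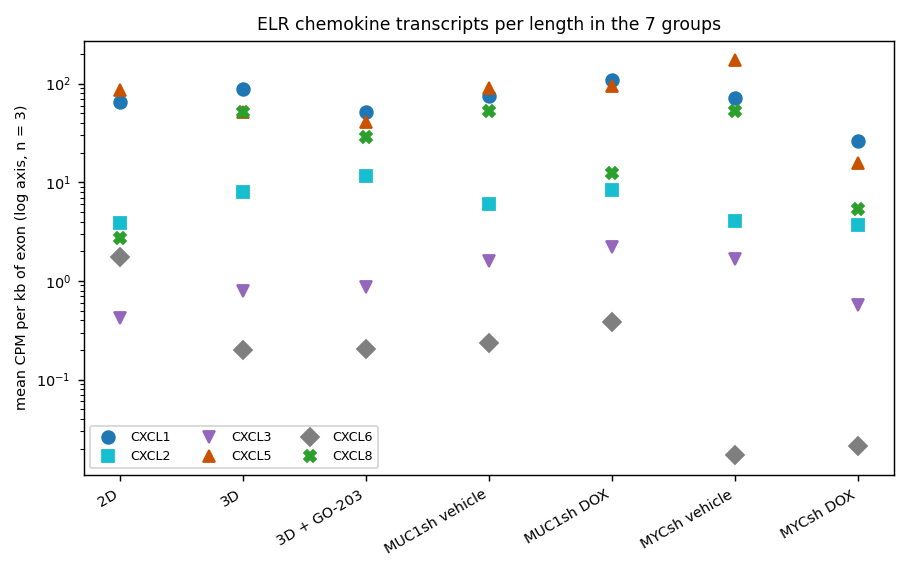
The plot gives the mean level of each ELR chemokine in CPM per kb of exon (log axis, 3 libraries a group) in the 7 groups. CXCL8 is at 2.74 in 2D cells and between 51.1 and 53.3 in 3D cells and both vehicle groups, and CXCL1 and CXCL5 exceed it in every group except for the near-equal CXCL5 of 3D cells.

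CCL20 (ENSG00000115009), which draws immature dendritic cells and Th17 cells through CCR6, was nearly silent in 2D cells. Its values were 0.0665, 0.0348 and 0.137 CPM in 2D, from 2 to 8 counts a library, and 9.05, 10.7 and 9.89 CPM in 3D libraries (log2 fold change 6.89, SE 0.26, adjusted p = 1.25e-12, and 7.59 without 2D replicate 3). CCL2 and CCL5, which attract monocytes and T cells, fell. CCL2 was at 18.2, 14.5 and 11.6 CPM in 2D and at 2.7, 2.61 and 2.2 CPM in 3D libraries (log2 fold change -2.57, SE 0.16). CCL5 was at 1.33, 1.53 and 1.23 CPM in 2D and at 0.332, 0.0781 and 0.155 CPM in 3D libraries (log2 fold change -2.87, SE 0.4, and -3.46 without 3D replicate 1). The groups did not overlap for any of these CC chemokines. CCL7, the neighbor of CCL2 on chromosome 17, had 19 counts over the 2D libraries and 0 over the 3D libraries.

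CSF3 and CSF1 encode the growth factors of granulocytes (G-CSF) and of macrophages (M-CSF). CSF3 (ENSG00000108342) was at 0.0222, 0.0348 and 0 CPM in 2D libraries, 3 counts in all, and at 17.4, 16.8 and 16.5 CPM in 3D libraries. The ratio of the group totals was 905 (95% counting interval 309 to 4390), and the fitted log2 fold change was 9.65 (SE 0.26, adjusted p = 1.38e-14), with 10.46 without 2D replicate 2 and 9.06 without 2D replicate 3. CSF1 (ENSG00000184371) was at 16.6, 17.1 and 18.5 CPM in 2D and at 73.9, 64.8 and 67.4 CPM in 3D libraries, a 3.93-fold rise (log2 1.97, SE 0.07, adjusted p = 6.6e-13). Both genes were also higher in every vehicle-treated tet library than in any 2D library. The third factor of the group, CSF2, had at most 4 counts in a library.

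The gp130 ligands IL6 and LIF, which signal to STAT3, both rose. IL6 was at 2.88, 3.48 and 2.41 CPM in 2D and at 8.26, 7.51 and 7.9 CPM in 3D libraries (log2 fold change 1.43, SE 0.15, adjusted p = 4.7e-07). LIF went from a mean of 8.47 to 21.9 CPM (log2 fold change 1.37, SE 0.09). In the interleukin-1 family IL1A, IL1B and IL18 had mean levels of 0.135 to 0.322 CPM and none passed, with adjusted p from 0.122 to 0.353.

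IL7 and IL15 were lower in 3D cells. IL7, a survival factor of T cells, was at 9.27, 9.18 and 11.3 CPM in 2D and at 0.996, 1.01 and 1.24 CPM in 3D libraries (log2 fold change -3.19, SE 0.16, adjusted p = 5.29e-11). IL15, which supports NK and memory T cells, was at 6.03, 7.61 and 6.78 CPM in 2D and at 1.31, 1.07 and 1.21 CPM in 3D libraries (log2 fold change -2.51, SE 0.17, adjusted p = 1.77e-09). The 2D values of both genes were above those of all 3D and vehicle-treated libraries. IL32 fell by 1.47 and TSLP by 0.86 on the log2 scale. IL24 was too low for the test, with 0 counts over the 2D libraries and 27 over the 3D libraries. Where DESeq2 was used, IL24 and CCL7 were both past the fold threshold.

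TNFSF15, a TNF superfamily ligand that acts on T cells and endothelium, was at 3.95, 4.01 and 6.46 CPM in 2D and at 0.457, 0.117 and 0.651 CPM in 3D libraries (log2 fold change -3.52, SE 0.35, adjusted p = 2.68e-07). VEGFC, the growth factor of lymphatic vessels, was at 38, 37.2 and 37.2 CPM in 2D and at 9.24, 9.09 and 8.4 CPM in 3D libraries (log2 fold change -2.08, SE 0.08, adjusted p = 8.73e-13). CXCL13, which draws B cells through CXCR5, was at 0.0443, 0.0695 and 0 CPM in 2D and at 0.54, 1.13 and 1.08 CPM in 3D libraries (log2 fold change 4.54, SE 0.62, adjusted p = 9.61e-06). Its rise rests on 6 counts in 2D, with a log2 fold change of 5.41 without 2D replicate 2 and 3.93 without 2D replicate 3, and in the vehicle groups of the tet lines CXCL13 was at 0.118 to 0.209 and at 0 to 0.0197 CPM.

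With the vehicle-treated tet-MUC1shRNA cells in place of 3D cells, 11 of the 12 members past the fold threshold remained so, and 10 of the 12 with vehicle-treated tet-MYCshRNA cells. CXCL13 was too low for the test with either, and VEGFC fell by 1.19 on the log2 scale with the tet-MYCshRNA cells, under the fold threshold. With the latter cells, IL6 (0.18, adjusted p = 0.403) and CXCL2 (0.09, adjusted p = 0.528) did not pass. With the vehicle-treated tet-MUC1shRNA cells TSLP changed direction and passed (0.76, adjusted p = 0.0511), and CXCL16 was at 0.23 (adjusted p = 0.343). In the comparison with 3D cells CXCL16 (-0.5) and TSLP (-0.86) passed narrowly and lost the call without some single libraries: without 2D replicate 2 their adjusted p was 0.22 and 0.305. CXCL16 also lost it without 2D replicate 1 or 3 and without 3D replicate 1 or 3, and TSLP without 2D replicate 3 and without 3D replicate 1 or 2.

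The comparison of GO-203-treated with control 3D cells asks which ligand genes move when MUC1-C is inhibited. The 3D libraries are the same as in the comparison with 2D cells, so both sets of values share them. IL6, LIF, CXCL2, CXCL13, CXCL16 and IL15 rose, and CXCL1, CXCL5, CXCL8, CSF3, VEGFC and IL1B fell. Of 23 members tested, 6 rose, 6 fell and 11 did not pass, against 11.1% of all 18488 genes that rose and 12.9% that fell, 24.1% in all. CXCL13 rose and IL1B fell past the fold threshold, which 0.757% of all genes passed, 0.498% higher and 0.26% lower. The median log2 fold change was 0.07 over the members and 0.0154 over all genes.

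CXCL8 was at 67.8, 71.5 and 86.3 CPM with GO-203 and at 127, 124 and 145 CPM without, a log2 fold change of -0.78 (SE 0.07, adjusted p = 1.01e-07). CXCL1 went from 119 to 70.8 CPM on average (log2 fold change -0.72, SE 0.06, adjusted p = 3.94e-08). CXCL5 was at 95.9, 93 and 113 CPM with GO-203 (log2 fold change -0.31, SE 0.07), and CXCL2 rose by 0.58. The family thus did not move as a block: 3 members fell, 1 rose, and CXCL3 (0.18) and CXCL6 (0.07) did not pass.

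CSF3 fell to 7.03, 7 and 8.76 CPM from 17.4, 16.8 and 16.5 CPM (log2 fold change -1.12, SE 0.1, adjusted p = 4.38e-08). CSF1 was at 69.3, 66.6 and 69.8 CPM with GO-203, inside the range of the 3D libraries (log2 fold change 0.03, SE 0.06, adjusted p = 0.803). IL6 moved opposite to CSF3. It was at 15.8, 16.1 and 16.9 CPM with GO-203 and at 8.26, 7.51 and 7.9 CPM without, a 2.11-fold rise (adjusted p = 2.49e-08). LIF rose from 21.9 to 30 CPM (log2 fold change 0.49).

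CXCL13 rose to 3.62, 3.7 and 4.38 CPM from 0.54, 1.13 and 1.08 CPM, a 4.3-fold change (log2 2.1, SE 0.23, adjusted p = 7.95e-07), and these were its highest values of the 7 groups. IL15 was at 2.24, 1.93 and 2.48 CPM with GO-203 (log2 fold change 0.92, SE 0.22, adjusted p = 0.00404), and CXCL16, a transmembrane chemokine, rose from 1.08 to 2.14 CPM. VEGFC was at 5.63, 5.73 and 5.89 CPM with GO-203 (log2 fold change -0.6, SE 0.12). CCL20, CCL2, CCL5, IL7 and TNFSF15 did not pass, with log2 fold changes of -0.17, 0.22, 0.93, 0.11 and -0.61. The fall of IL1B (log2 -2.58, SE 0.76, adjusted p = 0.0198) rests on 0 to 4 counts a library with GO-203, and its adjusted p was 0.118 without GO-203 replicate 1 and 0.107 without GO-203 replicate 3. Without GO-203 replicate 2 its log2 fold change was -3.67.

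**Figure D3:**
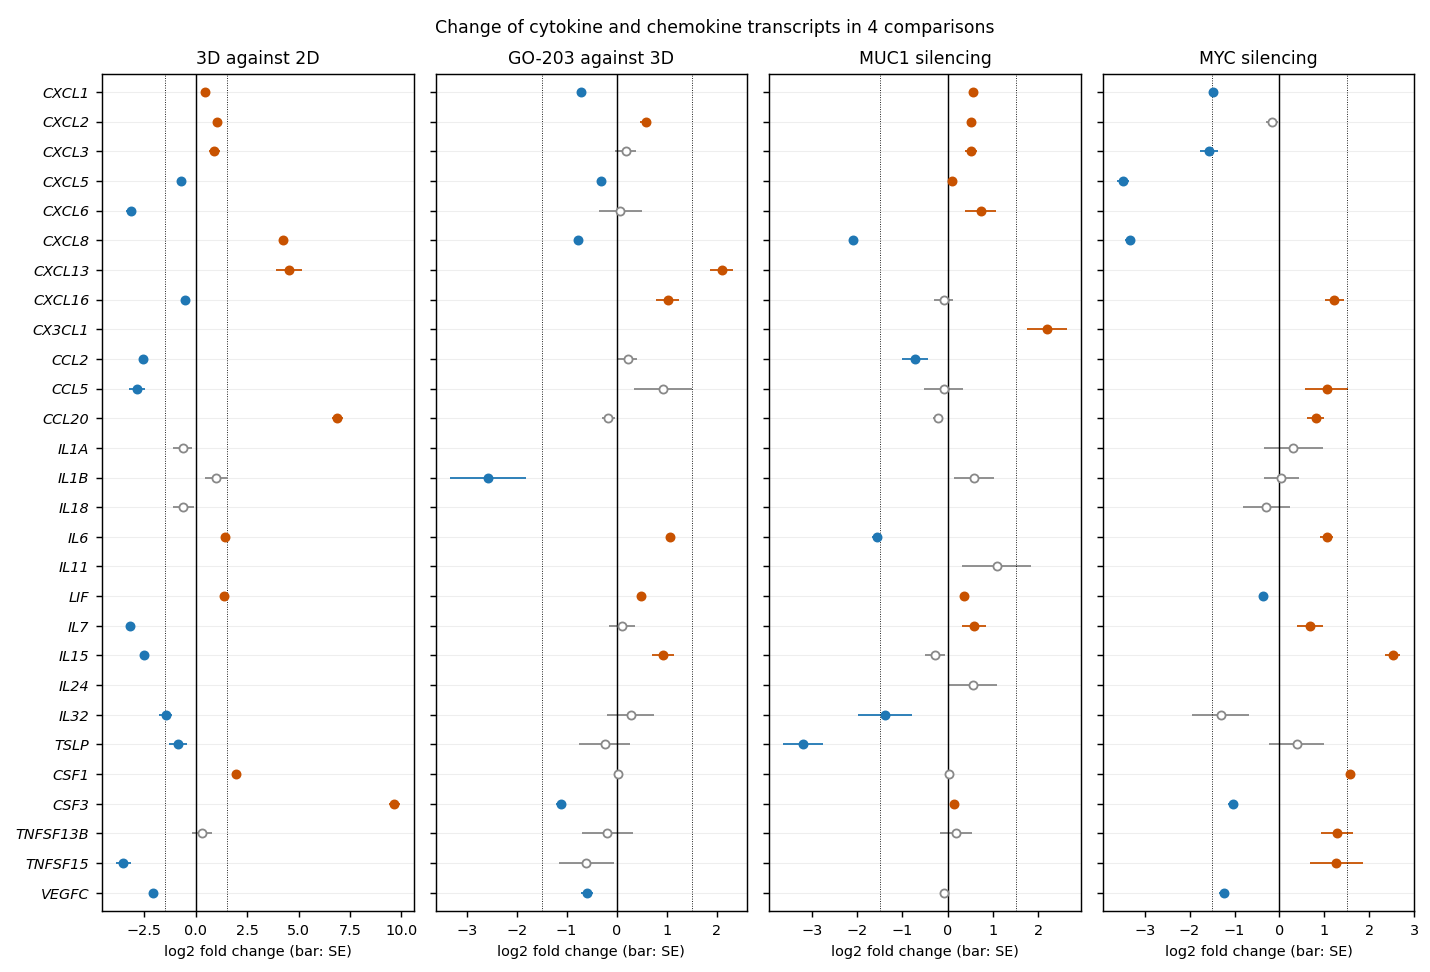
Each point is the log2 fold change of 1 member tested in the comparison named above the panel, and bars are standard errors from edgeR. Filled points passed (orange higher, blue lower), open points did not, the dotted lines mark the fold threshold of 1.5, and the panels have different scales.

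The comparison of DOX- with vehicle-treated tet-MUC1shRNA mammospheres asks which ligand genes depend on MUC1. CXCL8, IL6 and TSLP fell past the fold threshold and CX3CL1 rose past it. Of 24 members tested, 9 rose, 5 fell and 10 did not pass, beside 30.7% of all 19220 genes that rose and 31.6% that fell, 62.2% in all. The fold threshold was passed by 8.82% of all genes, 5.74% higher and 3.08% lower. The median log2 fold change was 0.11 over the members and 0.0244 over all genes.

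CXCL8 was at 147, 124 and 142 CPM with vehicle and at 32.1, 34.3 and 29.4 CPM with DOX (log2 fold change -2.08, SE 0.06, adjusted p = 1.99e-16). The other ELR chemokines did not follow it. CXCL1 rose from 103 to 149 CPM (log2 fold change 0.56, SE 0.05, adjusted p = 3.22e-09), CXCL2 rose by 0.52, and CXCL3 went from 3.58, 3.65 and 3.32 to 4.46, 5.68 and 4.67 CPM (log2 fold change 0.52). CXCL5, at 239, 235 and 218 CPM with DOX, overlapped its vehicle values, and its log2 fold change of 0.09 passed narrowly (adjusted p = 0.0674). CXCL6 went from 0.626, 0.376 and 0.433 to 0.708, 0.891 and 0.726 CPM (log2 fold change 0.73, adjusted p = 0.0713).

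IL6 fell from 16, 19.3 and 16.5 to 5.43, 6.91 and 4.79 CPM (log2 fold change -1.56, SE 0.11, adjusted p = 2.54e-10), with no overlap between the groups. It is just past the fold threshold, with -1.48 without vehicle replicate 2, -1.46 without DOX replicate 3 and -1.4 where libraries were scaled by size alone. LIF, which signals through the same gp130 subunit, rose by 0.37 (adjusted p = 1.24e-05). TSLP, an epithelial cytokine that acts on dendritic cells, went from 0.987 ± 0.245 to 0.106 ± 0.033 CPM (SD, n = 3), a log2 fold change of -3.19 (SE 0.44, adjusted p = 2.34e-06). CX3CL1, a membrane-bound attractant of T and NK cells, went from 0.168 to 0.763 CPM (log2 fold change 2.19, SE 0.44, adjusted p = 0.000221), from 4 to 12 counts a library with vehicle and 30 to 52 with DOX.

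CSF1 (161, 182 and 156 CPM with vehicle, 167, 174 and 158 CPM with DOX) and VEGFC (7.65, 7.36 and 8.3 CPM, then 7.43, 7.35 and 7.1 CPM) did not pass, with log2 fold changes of 0.02 and -0.07. CSF3 was at 39, 38.8 and 40 CPM with vehicle and at 42.6, 44.1 and 40.5 CPM with DOX, a log2 fold change of 0.13 that passed (adjusted p = 0.043). CCL20, at 9.53, 12.5 and 12.7 CPM and then at 9.61, 10.5 and 9.55 CPM, did not pass (log2 fold change -0.21, adjusted p = 0.102). IL15 was at 1.46, 1.67 and 1.67 CPM with vehicle and at 1.26, 1.35 and 1.32 CPM with DOX (log2 fold change -0.27, adjusted p = 0.3). IL7 was at 0.992, 1.29 and 1.69 CPM with vehicle and at 1.89, 1.43 and 2.65 CPM with DOX (log2 fold change 0.58, adjusted p = 0.0596). CCL2 went from 0.887, 1.55 and 1.38 to 0.743, 0.738 and 0.817 CPM (log2 fold change -0.72, adjusted p = 0.0327), and CCL5 overlapped between the groups (-0.09).

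TNFSF15 was too low for the test. It had 34 counts over the vehicle libraries and 2 over the DOX libraries, a ratio of 22.3 (95% counting interval 5.71 to 191). The calls of IL32, IL7, CSF3, CXCL6, CXCL5 and CCL2 were lost without single libraries, with adjusted p reaching 0.249, 0.319, 0.154, 0.205, 0.232 and 0.149. Vehicle replicate 2 was among the libraries that ended each of these calls, and the others were vehicle replicate 1 for IL7, vehicle replicate 3 for IL32, CCL2 and CXCL6, DOX replicate 1 for IL32 and CXCL5, DOX replicate 2 for CSF3, CXCL6 and CXCL5, and DOX replicate 3 for IL32 and IL7.

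The comparison of DOX- with vehicle-treated tet-MYCshRNA mammospheres asks the same of MYC. CXCL5, CXCL8 and CXCL3 fell past the fold threshold, and IL15 and CSF1 rose past it. Of 22 members tested, 9 rose, 7 fell and 6 did not pass, beside 30.3% of all 19951 genes that rose and 28.1% that fell, 58.5% in all. The fold threshold was passed by 10.5% of all genes, 7.06% higher and 3.39% lower. The median log2 fold change was 0.17 over the members and 0.00879 over all genes.

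The fall ran through most of the ELR family, in which 4 of 5 tested members passed. CXCL5 went from 387, 435 and 432 to 47.8, 33.5 and 32.7 CPM (log2 fold change -3.48, SE 0.14, adjusted p = 3.74e-08). CXCL8 went from 127, 122 and 158 to 14.8, 13.8 and 12.8 CPM (log2 fold change -3.32, SE 0.11, adjusted p = 1.17e-08). CXCL1 went from 96.7 to 35.5 CPM (log2 fold change -1.47, SE 0.06, adjusted p = 5.72e-08). CXCL3 went from 4.02, 3.28 and 3.9 to 0.948, 1.38 and 1.49 CPM (log2 fold change -1.56, SE 0.2, adjusted p = 8.16e-05) and is just past the fold threshold, under it without DOX replicate 1. CXCL2 did not pass (log2 fold change -0.16, adjusted p = 0.323). CXCL6 had 0 to 0.0948 CPM in these libraries and was not tested.

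The colony-stimulating factors diverged. CSF1 rose from 85.1, 84.3 and 82.5 to 217, 268 and 272 CPM (log2 fold change 1.57, SE 0.09, adjusted p = 2.2e-07), its highest values of the 7 groups. CSF3 fell from 20, 19 and 18.5 to 8.23, 10.7 and 9.37 CPM (log2 fold change -1.04, SE 0.11, adjusted p = 2.71e-05). VEGFC fell from 16, 15.8 and 17.5 to 6.33, 7.23 and 7.76 CPM (log2 fold change -1.23, SE 0.11, adjusted p = 6.97e-06).

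IL15 rose from 0.745, 0.866 and 1.04 to 5.1, 5.39 and 4.96 CPM (log2 fold change 2.52, SE 0.17, adjusted p = 1e-06). IL6 rose from 3.02, 3.01 and 3.89 to 6.88, 7.14 and 6.75 CPM (log2 fold change 1.05, SE 0.14, adjusted p = 0.000122), and LIF fell by 0.36. CCL20 rose from 2.45, 2.91 and 2.64 to 4.58, 5.95 and 3.73 CPM (log2 fold change 0.81, SE 0.19, adjusted p = 0.0042). CXCL16 rose by 1.22 and TNFSF13B, the B cell survival factor BAFF, by 1.28.

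IL7 went from 0.586, 0.965 and 1.04 to 1.77, 1.27 and 1.15 CPM (log2 fold change 0.67, adjusted p = 0.0757). CCL5 went from 0.133, 0.217 and 0.196 to 0.282, 0.585 and 0.284 CPM (log2 fold change 1.05, adjusted p = 0.085). TNFSF15 went from 0.0798, 0.0591 and 0.196 to 0.363, 0.275 and 0.158 CPM, with overlap (log2 fold change 1.27, adjusted p = 0.0988, and 1.87 without vehicle replicate 3). These 3 calls were lost without single libraries: those of IL7 and TNFSF15 without vehicle replicate 1 or 2 or DOX replicate 1, that of TNFSF15 also without DOX replicate 2, and that of CCL5 without any 1 of the vehicle replicates or DOX replicate 2, with adjusted p up to 0.245, 0.332 and 0.368. CCL2 was at 0.0344 to 0.253 CPM and was not tested. CXCL13 had 2 counts with vehicle and 28 with DOX over the groups, a ratio of 19.5 (95% counting interval 4.91 to 169), and IL24 had 25 and 0. Without DOX replicate 1, which stood apart, 4 of the 5 members remained past the fold threshold, with log2 fold changes of -3.68 for CXCL5, -3.37 for CXCL8, 2.53 for IL15 and 1.66 for CSF1, and CXCL3 (-1.4) did not. The difference from MUC1 silencing described next stayed past it for 10 of 10 members without this library.

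The silencing experiments share no library, and the difference of their effects was tested as an interaction over 12 libraries. Of 19 members tested in both, 8 passed in both. CXCL8 fell in both, IL7 rose in both, and CXCL1, CXCL3, CXCL5, IL6, LIF and CSF3 moved in opposite directions. For CXCL8 the fall was larger with the MYC shRNA, with a difference of 1.22 on the log2 scale (MUC1 effect minus MYC effect, SE 0.13, adjusted p = 5.6e-07). IL7 showed a difference of -0.1 (SE 0.4, adjusted p = 0.871). MUC1 mRNA was reduced further than MYC mRNA, as given above, so the effects do not refer to equal silencing.

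Over 28 members tested, the difference passed for 18, and for 10 of them it was past the fold threshold, beside 52.9% and 16.2% of all 21585 genes. It was positive for 9 of the 18 and for 4 of the 10, beside 26% of all genes with a positive and 26.9% with a negative difference that passed, and 7.59% and 8.56% past the fold threshold. The 10 were CXCL1, CXCL3, CXCL5 and IL24, with the more positive effect on MUC1 silencing, and IL6, IL15, CSF1, TSLP, CXCL13 and TNFSF15, with the more positive effect on MYC silencing. The difference was 3.56 for CXCL5 (SE 0.15, adjusted p = 1.99e-12), 2.01 for CXCL1 (SE 0.08, adjusted p = 2.23e-12) and -2.63 for IL6 (SE 0.2, adjusted p = 4.2e-09). It was -2.81 for IL15 (SE 0.24) and -1.56 for CSF1 (SE 0.11). Of the 6 ELR chemokines 5 passed, each with a positive difference, and CXCL6 did not (0.55, SE 1.07). The vehicle groups themselves differed for some members. IL6 was at 16 to 19.3 CPM in vehicle-treated tet-MUC1shRNA and at 3.01 to 3.89 CPM in vehicle-treated tet-MYCshRNA libraries. With DOX it was at 4.79 to 6.91 and at 6.75 to 7.14 CPM. CXCL1 was at 101 to 104 and at 95.4 to 98.8 CPM with vehicle. The part of these starting levels in the differences was not tested.

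**Figure D4:**
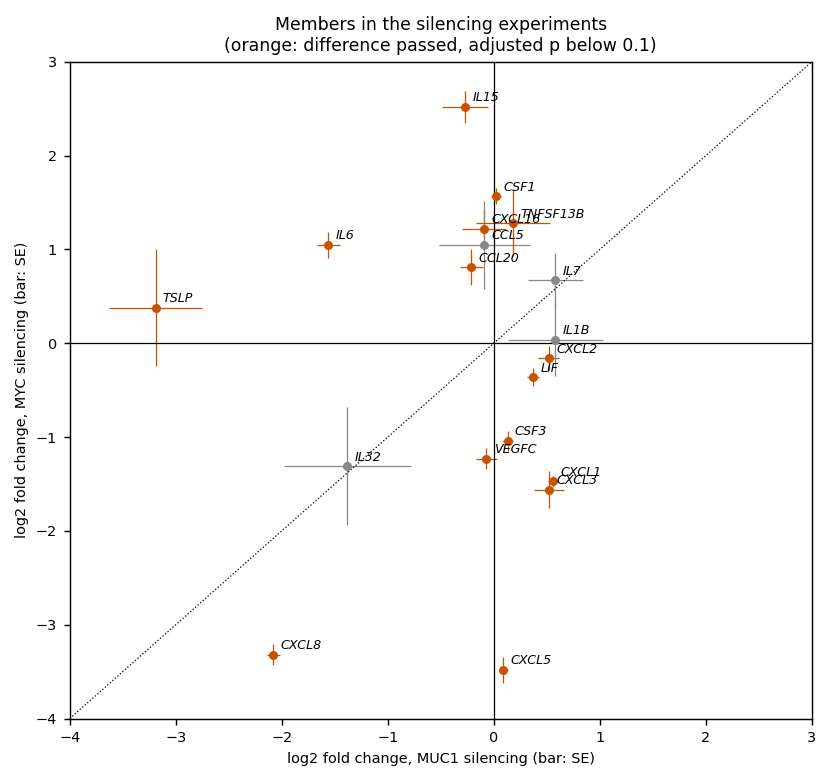
The 19 members tested in both silencing experiments are plotted by their log2 fold change on MUC1 silencing (x axis) and on MYC silencing (y axis), with standard errors as bars, a dotted line of equality and orange for a difference that passed. CXCL8 lies at -2.08 and -3.32, CXCL5 at 0.09 and -3.48, and IL6 at -1.56 and 1.05.

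The receptors and response genes of these ligands give the other side of the pathway. In the table were 49 of 50 receptors. Of 26 tested, 15 rose and 7 fell in 3D against 2D, with 9 and 3 past the fold threshold. With GO-203, 4 of 26 rose, 8 fell and 0 passed the fold threshold by edgeR or by DESeq2, and 13 had an unadjusted p below 0.05. On MUC1 silencing 9 of 28 rose and 11 fell, with 2 and 4 past the threshold, and on MYC silencing 14 of 28 rose and 7 fell, with 7 and 3 past it. The shares of all genes are those given above for each comparison.

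TNFRSF10A, a death receptor for the ligand TRAIL (TNFSF10), was at 0.0443, 0.0348 and 0.0342 CPM in 2D and at 20.7, 19.5 and 21.9 CPM in 3D libraries (log2 fold change 9.03, SE 0.2). It rose by 1.65 on MUC1 silencing and fell by 2.37 on MYC silencing. TNFRSF10D, a decoy receptor for TRAIL, rose by 3.57 in 3D cells. TNFSF10 itself had at most 6 counts in a library.

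CXCR4, the receptor of CXCL12, rose by 2.37 in 3D cells. It then fell from 4.33, 3.29 and 2.79 to 0.354, 0.362 and 0.227 CPM on MUC1 silencing (log2 fold change -3.4, SE 0.26, adjusted p = 4.88e-10). CXCL12 had at most 4 counts in a library. Also past the threshold in 3D cells were CCR1 (5.25), the decoy receptor IL1R2 (4.14) and IL7R (-2.12), the receptor chain for IL-7 and TSLP. On MUC1 silencing KDR rose by 2.66 and IL1RAP fell by 1.56.

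LIFR, which pairs with gp130 to bind LIF, went from 72.9, 77 and 78.6 to 401, 324 and 360 CPM on MYC silencing (log2 fold change 2.23, SE 0.08, adjusted p = 2.3e-08), while LIF fell. TNFRSF1B rose by 2.95, IL18R1 by 2.29 and ACKR3, a scavenger of CXCL12, by 2.26, and CRLF2, the specific chain of the TSLP receptor, fell by 3.96.

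Receptors of abundant ligands, named here after their values were seen, differed widely in level. CXCR1 and CXCR2 were at 0 CPM in every library outside the DOX-treated tet-MUC1shRNA group, where they reached at most 0.111 CPM. CSF1R was at 0.0781 to 1.16 CPM and CSF3R at 0 to 0.583 CPM. IL6ST, which encodes gp130, was at 510 to 915 CPM.

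**Figure D5:**
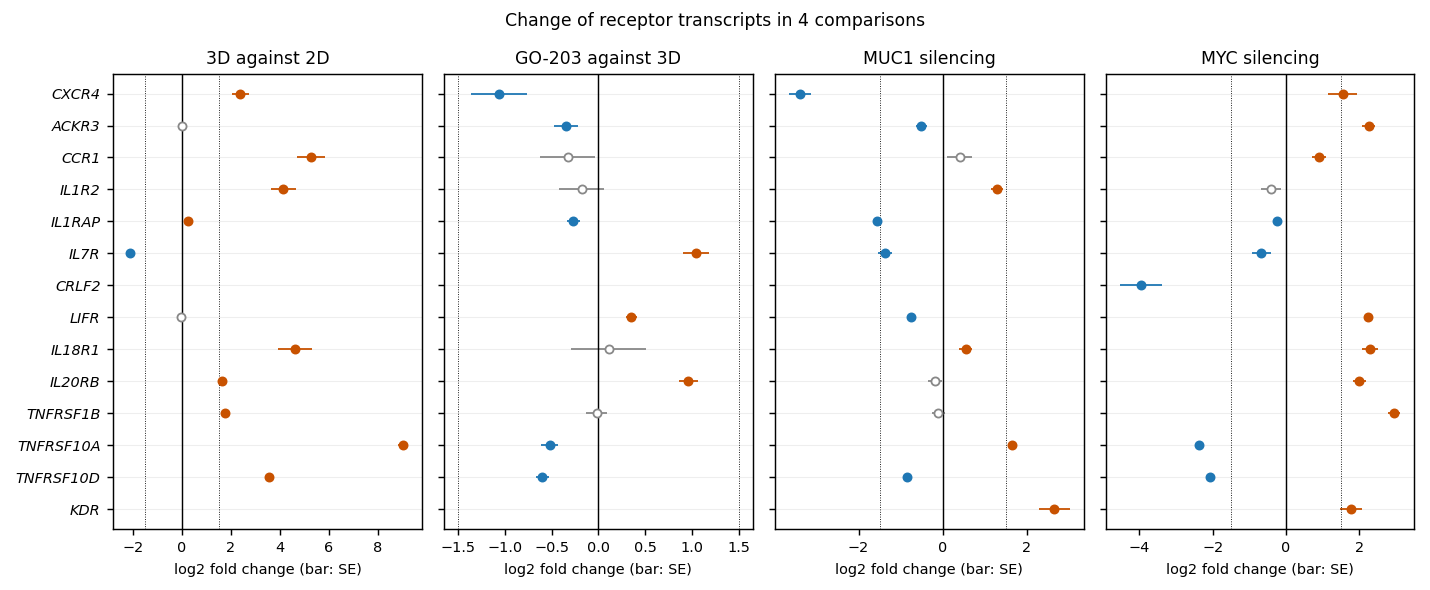
Log2 fold changes with standard errors are plotted for the receptors past the fold threshold in any of the 4 comparisons with at least 1 CPM in the higher group. Filled points passed (orange higher, blue lower), open points did not, and the panels have different scales. TNFRSF10A lies at 9.03 in 3D cells, 1.65 on MUC1 silencing and -2.37 on MYC silencing.

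Of 22 NF-κB and STAT3 response genes, 13 rose and 6 fell in 3D against 2D, beside 63.7% of all genes that passed, and 3 were past the fold threshold, beside 16.2%. BIRC3, an inhibitor of apoptosis, went from 3.46, 3.08 and 3.9 to 30, 31.2 and 33.9 CPM (log2 fold change 3.18, SE 0.1), CEBPD, a transcription factor induced by STAT3, rose by 2.89, and TNFAIP2 rose by 2.68. With GO-203, 5 rose and 1 fell, beside 24.1% of all genes that passed, and on MUC1 silencing 11 rose and 4 fell, beside 62.2%. In neither was a response gene past the fold threshold (0 by edgeR and 0 by DESeq2), beside 0.757% and 8.82% of all genes. An unadjusted p below 0.05 was found for 11 response genes with GO-203 and 15 on MUC1 silencing. On MYC silencing 16 rose and 2 fell, beside 30.3% of all genes higher and 28.1% lower, and 1 of 22, TNFAIP2 (2.15), was past the fold threshold, beside 10.5% of all genes. On MUC1 silencing, where CXCL8 and IL6 fell, NFKBIA (0.26) and BIRC3 (0.79) rose and RELA (-0.62) and CEBPD (-0.88) fell, genes named after their values were seen.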

How the data were processed

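The libraries were stranded, paired-end mRNA libraries of total RNA. The authors aligned reads to GRCh38 with STAR and counted them per gene with featureCounts. What the authors deposited is a table of unnormalized counts, whose empty cells were read as 0. Which annotation release and strand setting were used, and how mates were counted, is not given in the sources used here. Gene positions and exon bases are those of GENCODE 44, and of 42339 identifiers 42252 had a symbol.

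Every comparison used its own 6 libraries and edgeR 4.0.16 (R 4.3.3): filterByExpr, TMM factors and the quasi-likelihood test, with p-values adjusted by Benjamini-Hochberg over all genes tested. How MUC1 and MYC silencing differ was fitted as an interaction over 12 libraries. Printed CPM values were scaled by TMM over all 21 libraries. Values per kb divide CPM by the exon bases of the gene. The fits were tested on simulated data. Groups were taken from the sample labels.

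The members, the receptors, the response genes and the motifs were chosen with earlier results of these data known. A member is given in every library where it was past the fold threshold in at least 1 comparison without overlap of the groups and had a mean of at least 1 CPM in the higher group. At most 6 receptors or response genes of at least 1 CPM are named a comparison by size of change. SOD2 and the marker MS4A1 were not analysed here.

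Counts of replicate libraries differed beyond sampling noise (chi-square over degrees of freedom 4.13 to 45.6, with the highest values in DOX-treated tet-MYCshRNA cells). Alternatives were DESeq2 1.42.0, RLE factors, library size alone, a filter at 1 count or at 10 counts in each library, a joint fit of the 21 libraries, the replicate number as a block, an adjusted p below 0.05, an absolute fold change above 1.5, the vehicle groups in place of 3D cells, and leaving out each library.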

Additional observations from a re-analysis of the deposited data

Results flagged for a closer look

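For 10 members the effect of MUC1 silencing differed from that of MYC silencing past the fold threshold in edgeR's interaction test. Values are the log2 fold change on MUC1 silencing minus that on MYC silencing. For CXCL1 (2.01, adjusted p = 2.23e-12) the effects were 0.56 and -1.47, and for CXCL3 (2.07, adjusted p = 1.14e-06) they were 0.52 and -1.56. For CXCL5 (3.56, adjusted p = 1.99e-12) they were 0.09 and -3.48. Its groups overlapped on MUC1 silencing, and that call was lost without any 1 of 3 libraries and in one fit of all 21 libraries (adjusted p = 0.618). For IL6 (-2.63, adjusted p = 4.2e-09) the effects were -1.56 and 1.05. For IL15 (-2.81, adjusted p = 2.49e-08) they were -0.27 and 2.52, and for CSF1 (-1.56, adjusted p = 2.48e-09) they were 0.02 and 1.57, with neither MUC1 effect passing. For TSLP (-3.6, adjusted p = 0.000761) they were -3.19 and 0.38, the latter not passing.

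CXCL13 (-6.67, adjusted p = 0.00132), IL24 (6.25, adjusted p = 0.00175) and TNFSF15 (-5.52, adjusted p = 0.000502) rest on few counts. IL24 had 0 counts in DOX-treated tet-MYCshRNA libraries, CXCL13 had 4 counts over the DOX-treated tet-MUC1shRNA and 2 over the vehicle-treated tet-MYCshRNA libraries, and TNFSF15 had 2 over the DOX-treated tet-MUC1shRNA libraries, so their fitted sizes depend on the prior count. Leaving out each library in turn gave differences from -10.18 to -6.18 for CXCL13, from 5.89 to 6.53 for IL24 and from -8.16 to -5.03 for TNFSF15, with -10.18 and -8.16 without DOX tet-MUC1shRNA replicate 2, -8.88 for CXCL13 without vehicle tet-MYCshRNA replicate 2 and -6.14 for TNFSF15 without vehicle tet-MYCshRNA replicate 3. CSF1 was under the fold threshold without vehicle tet-MUC1shRNA replicate 2 (-1.49).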

How the results depend on the processing

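Over 1348 values of members that passed, 1255 kept direction and passed the cutoff of the setting, 89 kept direction and did not, and 4 changed sign. That cutoff was an adjusted p below 0.1, or below 0.05 in the setting of that name. This setting and that of an absolute fold change above 1.5 reused the main fit, and the latter keeps every value by construction. Values that an alternative did not test are left out. Of the 1255, 9 were under the fold threshold that the member had passed, for IL6 on MUC1 silencing, CXCL3 on MYC silencing, VEGFC in 3D against 2D and CSF1 in the difference. The sign changes came from other mammospheres in place of 3D cells: TSLP (0.76, adjusted p = 0.0511), CXCL16 (0.23) and CXCL5 (0.07) with vehicle-treated tet-MUC1shRNA cells, and CXCL5 (1) with vehicle-treated tet-MYCshRNA cells. Members past the fold threshold numbered 12 in 3D against 2D, 2 with GO-203, 4 on MUC1 silencing, 5 on MYC silencing and 10 for the difference. With at least 10 counts in every library, which tests fewer genes, these were 7, 1, 2, 5 and 5. With an absolute fold change above 1.5 they were 19, 9, 7, 15 and 18. The share of all genes was not computed at this fold change or with the filter of 10 counts. These counts therefore cannot be read as a result about the members. DESeq2 left 1 with GO-203 and gave no adjusted p for IL1B. One fit of all 21 libraries gave 7 on MUC1 silencing, where CXCL13, IL1A and TNFSF15 were added. These genes had too few counts for the test in the main fit of that comparison. Leaving out each library gave 12 to 14, 1 to 2, 4 to 6, 4 to 7 and 9 to 11. Scaled by library size alone, all genes had a median change (log2) of 0.19 on MUC1 silencing and 0.25 for the difference, against 0.0244 and 0.0493 with TMM factors, and IL6 (-1.4) on MUC1 silencing and CSF1 (-1.35) in the difference were then under the fold threshold.

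Replicate numbers did not pair the libraries in every comparison. Deviations of same-numbered libraries correlated between -0.34 and 0.17 over 12 pairs, and 5 of 12 correlated best with their own number. These were replicates 1, 2 and 3 of GO-203 against 3D (0.17, 0.04 and 0.15) and replicates 1 and 3 on MUC1 silencing (0.06 and 0.09). None were in 3D against 2D or on MYC silencing. With the replicate block 12, 2, 5, 5 and 10 members were past the fold threshold. The block ended the calls of TSLP (adjusted p = 0.121) and CXCL16 (0.115) in 3D against 2D. It also ended those of IL7 (0.139), TNFSF15 (0.166) and CCL5 (0.137) on MYC silencing and of TNFSF13B (0.116) in the difference. Counting error limits genes near 1 CPM and below, among them IL1B, IL24, CXCL13 and TNFSF15.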
